A study of Mus musculus with 21 samples.

Results

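Claudins are the membrane proteins of tight junctions that decide which ions pass between the cells of an epithelium, and each segment of the nephron carries its own combination of them. The 10 claudins of nephron segments described here were *Cldn1*, *Cldn2*, *Cldn3*, *Cldn4*, *Cldn7*, *Cldn8*, *Cldn10*, *Cldn12*, *Cldn16* and *Cldn19*. They were chosen by name as a list and not by a cut on their values, but with earlier results of these data known. They were found as 10 of the 27179 genes in the count tables. The libraries were made from RNA of podocyte fractions, which are cells of the digested cortex captured on magnetic beads by antibodies against nephrin, a protein of the slit diaphragm. They came from male wildtype mice in 3 groups: 6 untreated young mice of 4 months, 7 middle-aged mice of 19.5 months given saline, and 8 middle-aged mice of 19.5 months given MCC950, a small molecule that inhibits the NLRP3 inflammasome. The young mice were untreated, so age and the saline treatment cannot be told apart. All animals shared the wildtype genotype, and no transgene or deletion was involved.

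In the proximal tubule, claudin-2 forms a pore for cations and water, and claudin-12 contributes to calcium passage. Claudin-10 is also found there, and across the nephron it comes in a cation-selective and an anion-selective form. In the thick ascending limb, claudin-16 and claudin-19 act together in the reabsorption of magnesium and calcium, and claudin-10 serves sodium passage. In the distal nephron and collecting duct, claudin-3, claudin-4, claudin-7 and claudin-8 tighten the junction or set its permeability to chloride. Claudin-1 lies in the parietal epithelium that lines Bowman's capsule. A differentiated podocyte has slit diaphragms in place of tight junctions, and none of these 10 proteins is among its defining markers.

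On the GRCm38 assembly, the claudins lie at chrX:139800808-139811386 for *Cldn2*, chr14:118787871-118874525 for *Cldn10*, chr5:5505015-5514976 for *Cldn12*, chr16:26463135-26482765 for *Cldn16* and chr4:119255441-119262438 for *Cldn19*. *Cldn8* lies at chr16:88560826-88563183, *Cldn7* at chr11:69964779-69967886 and *Cldn1* at chr16:26356645-26371839, separated from *Cldn16* by 91296 bases. *Cldn4* at chr5:134945123-134946934 and *Cldn3* at chr5:134986214-134987476 are neighbours separated by 39280 bases. Reads were counted over whole genes, so the isoforms of a claudin are pooled. *Cldn3* overlaps *Wbscr25*, which had from 0 to 6 counts per library, or 0.295% of the counts of both genes. The genes that overlap *Cldn10* and *Cldn19* in the annotation were not found in the count tables, so they have no counts to compare. Whether the counting used strand is not given in the sources used here.

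RefSeq promoter windows (GRCm38.p6, 300 bases, of which 250 lie before a transcript start) were matched for 9 of the 10 claudins and held 14 start sites. *Cldn8* had no entry. Shown are *Cldn2* and *Cldn19*, the claudins that differed between MCC950 and saline, and both start sites of *Cldn10*, whose separate isoforms the counts add together. Capitals mark letters that matched one of the motifs searched on both strands: TATAAA, the short site GTTAAT of the factor HNF1, CAAAGTCCA of HNF4, AACNNGTT of the grainyhead factors and GCCNNNGGC of AP-2.
Cldn2, chrX:139800558-139800857, plus strand: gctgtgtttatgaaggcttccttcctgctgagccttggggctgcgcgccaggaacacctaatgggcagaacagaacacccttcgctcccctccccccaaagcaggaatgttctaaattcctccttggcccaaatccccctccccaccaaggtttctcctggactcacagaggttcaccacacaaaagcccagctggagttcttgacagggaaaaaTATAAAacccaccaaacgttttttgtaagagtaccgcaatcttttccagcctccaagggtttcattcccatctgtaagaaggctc
Cldn10 first start site, chr14:118787621-118787920, plus strand: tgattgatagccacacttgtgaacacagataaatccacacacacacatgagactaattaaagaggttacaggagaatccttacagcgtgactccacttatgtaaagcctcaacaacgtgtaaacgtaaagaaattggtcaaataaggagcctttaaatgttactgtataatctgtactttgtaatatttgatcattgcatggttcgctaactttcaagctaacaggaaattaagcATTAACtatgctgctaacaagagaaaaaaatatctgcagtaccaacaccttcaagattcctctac
Cldn10 second start site, chr14:118854700-118854999, plus strand: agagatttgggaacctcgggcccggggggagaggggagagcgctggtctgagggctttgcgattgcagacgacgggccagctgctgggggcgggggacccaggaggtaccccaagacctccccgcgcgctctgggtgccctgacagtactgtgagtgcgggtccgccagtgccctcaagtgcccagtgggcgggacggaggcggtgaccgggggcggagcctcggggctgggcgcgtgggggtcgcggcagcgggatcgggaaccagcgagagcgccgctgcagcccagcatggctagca
Cldn19 first start site, chr4:119255191-119255490, plus strand: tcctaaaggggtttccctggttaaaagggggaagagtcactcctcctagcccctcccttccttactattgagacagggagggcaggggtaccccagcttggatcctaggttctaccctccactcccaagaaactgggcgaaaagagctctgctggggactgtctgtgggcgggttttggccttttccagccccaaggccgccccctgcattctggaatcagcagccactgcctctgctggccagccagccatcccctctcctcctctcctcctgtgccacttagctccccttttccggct

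The *Cldn2* window held TATAAA beginning 35 bases before the start, a string found in 13.6% of the 32851 mouse promoter windows. The start sites of *Cldn10* lie 67079 bases apart and differ in composition. The first had 36% G and C and held the HNF1 site, on the minus strand, beginning 15 bases before the start, while the second had 72% G and C and no match. The HNF1 site occurred in 7.10% of all windows and, among the claudins, also in *Cldn1*. AP-2 letters, found in 16.6% of all windows, were in *Cldn3*, *Cldn12* and *Cldn16*. No claudin window held the HNF4 letters (0.475% of all windows) or the grainyhead letters (4.20%), and the *Cldn19* windows held none of the motifs. A match of letters is a description and not a binding site.

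Total counts ranged from 27375870 to 36827823 in young, from 45772937 to 84876399 in saline and from 35440472 to 58247271 in MCC950 libraries. The shallowest saline library exceeded the deepest young one, so depth and age cannot be told apart. Genes of the mitochondrial genome took 69.3%, 69.6% and 56.4% of the counts on average in young, saline and MCC950 libraries. All 14 podocyte markers examined passed the filter on low counts, as did all 15 of the proximal tubule, 8 of the thick ascending limb, 7 of the distal tubule, 8 of collecting duct principal cells, 9 of intercalated cells and 4 of the parietal epithelium, so the fractions carried RNA of tubule segments beside that of podocytes. The podocyte score, the mean log2 CPM of the markers (CPM, read counts scaled by library size and TMM factor), was 5.63 ± 0.52 (SD, n = 6) in young, 3.80 ± 0.40 (SD, n = 7) in saline and 4.34 ± 0.33 (SD, n = 8) in MCC950 libraries. In the same order, the mean score was 7.29, 7.09 and 7.95 for the proximal tubule and 7.31, 7.32 and 6.93 for the thick ascending limb. It was 6.97, 6.57 and 6.66 for the distal tubule and 6.09, 5.42 and 5.07 for principal cells. Intercalated cells had 4.95, 4.49 and 4.32, and the parietal epithelium 3.35, 2.82 and 2.85. Scores of different markers do not measure shares of cells. In such bulk samples, fewer cells of a segment and less RNA per cell cannot be told apart.

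All 10 claudins were detected in every library, at no fewer than 78 counts, and all passed the filter. Per kilobase of exon, *Cldn2*, *Cldn4* and *Cldn8* took the first 3 ranks in each of the 21 libraries. *Cldn8* averaged 44.1 ± 9.74 CPM per kb in young libraries (SD, n = 6), *Cldn4* 43.9 ± 10.0 and *Cldn2* 29.7 ± 11.3, and these 3 levels overlapped within their spread. *Cldn10* always ranked 4 or 5 and *Cldn7* from 4 to 6, at 10.8 ± 3.93 and 12.1 ± 2.94 CPM per kb in young libraries. *Cldn12* (5.25 ± 1.07), *Cldn3* (4.14 ± 1.05), *Cldn16* (3.74 ± 1.66) and *Cldn19* (3.59 ± 1.59) followed with overlapping ranges. *Cldn1* ranked 9 or 10 throughout, at 1.09 ± 0.416 CPM per kb. After MCC950 the order at the top changed: *Cldn2* averaged 43.4 ± 12.9 CPM per kb (SD, n = 8), *Cldn8* 28.1 ± 5.60 and *Cldn4* 27.1 ± 9.62. *Cldn2* made up 18.5 ± 4.08% of the summed per-kb level of the 10 claudins in young, 18.9 ± 4.75% in saline and 32.3 ± 5.96% in MCC950 libraries.

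**Figure D1:**
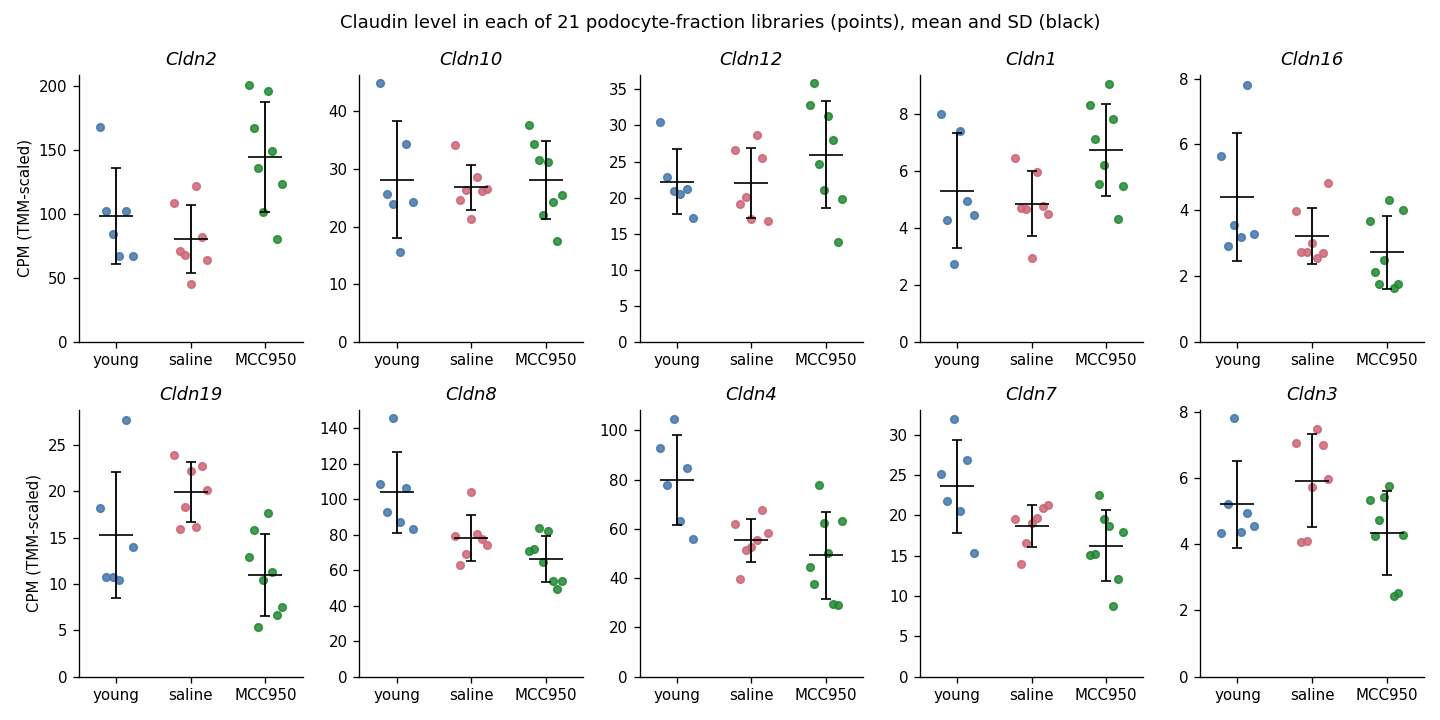
Level of each claudin in CPM (y axis, starting at 0), with 1 point per library in the young (n = 6), saline (n = 7) and MCC950 (n = 8) groups and the mean and SD in black. *Cldn2* was highest after MCC950, with a mean of 144.4 CPM, *Cldn19* was highest after saline, with a mean of 19.9 CPM, and *Cldn8* and *Cldn4* were highest in young libraries.

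The first comparison asked how the claudins differ with age, between saline-treated middle-aged and young mice. At an adjusted p under 0.05 in edgeR's quasi-likelihood test, 1 of the 10 claudins was lower in saline than in young libraries and 0 were higher, where 12.4% of all 16377 genes tested were lower and 12.2% higher. Without adjustment, 2 claudins had a p under 0.05, a cut at which the share of all genes was not computed. DESeq2 called 2 lower and 0 higher, where 2492 of 17732 genes were lower and 2139 higher. The median log2 fold change of the claudins was -0.22, against 0.02 over all genes, with 8 of 10 values negative. In no claudin were the groups without overlap (all genes: 4.86% lower, 4.51% higher), and 0 had an unadjusted p under 0.05 with over a 2-fold change, the threshold of the study (all genes: 2.92% lower, 4.04% higher).

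*Cldn8*, a barrier claudin of the distal nephron, was the one that fell. Its level was 83.0, 99.5 and 145.7 CPM (lowest, median and highest) in young libraries and 62.8, 77.6 and 104.3 CPM in saline libraries. Of the 7 saline libraries 6 lay below every young library, and 1 lay within the young range. The log2 fold change was -0.41 (SE 0.15, adjusted p = 0.0442). The call was close to the threshold, since it was lost without young replicate 1 (adjusted p = 0.0748), young replicate 3 (0.119), saline replicates 2 (0.0680), 3 (0.0595), 5 (0.0586) or 7 (0.0538), or MCC950 replicates 1 (0.0502) or 4 (0.0517). The score of principal cell markers was lower by 0.66 with age (exact two-sided permutation test, p = 0.00233, 6 of 7 saline libraries below every young one), and 6 of the 8 markers fell. With that score as a covariate, *Cldn8* had a log2 fold change of -0.04 (adjusted p = 0.872) in a fit that was added once the values were known.

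The other distal claudins did not pass the test with age. *Cldn4*, which with *Cldn8* forms a chloride path in the collecting duct, was at 55.8, 81.1 and 104.6 CPM in young and 39.5, 55.5 and 67.5 CPM in saline libraries. Of the saline libraries 4 of 7 lay below every young one, with a log2 fold change of -0.53 (SE 0.20, adjusted p = 0.0631). It passed the threshold with DESeq2 (adjusted p = 0.0318), and in the edgeR test without young replicate 4 (0.0444), young replicate 6 (0.0280) or MCC950 replicates 3 (0.0418), 6 (0.0465) or 7 (0.0434). *Cldn7* was at 23.6 ± 5.73 CPM in young and 18.7 ± 2.60 CPM in saline libraries (log2 fold change -0.33, SE 0.18, adjusted p = 0.188). *Cldn3* was at 5.21 ± 1.32 and 5.93 ± 1.40 CPM, with a log2 fold change of 0.19 (SE 0.21, adjusted p = 0.558). *Cldn3* thus had the opposite sign to its neighbour *Cldn4*, and the ratio of *Cldn4* to *Cldn3* per kilobase was 10.8 ± 2.28 in young and 6.63 ± 1.08 in saline libraries. With the principal cell score as a covariate, *Cldn3* had a log2 fold change of 0.72 (adjusted p = 0.00673), in the fit added once the values were known. Over all genes that fit called 988 higher and 1160 lower, against 1996 and 2038 in the main fit.

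Among the pore-forming claudins of the proximal tubule, *Cldn2* was at 98.7 ± 37.6 CPM in young and 80.1 ± 26.6 CPM in saline libraries (log2 fold change -0.30, 95% interval -0.81 to 0.21, adjusted p = 0.402). *Cldn10* had a log2 fold change of -0.07 (95% interval -0.47 to 0.33) and *Cldn12* of -0.01 (95% interval -0.41 to 0.38). The proximal tubule score differed by -0.20 with age (exact two-sided permutation test, p = 0.515). In the thick ascending limb pair the signs diverged: *Cldn16* was at -0.44 on the log2 scale (SE 0.27, adjusted p = 0.248) and *Cldn19* at 0.39 (SE 0.26, adjusted p = 0.296), and neither passed the test. *Cldn1* of the parietal epithelium was at 5.29 ± 2.01 CPM in young and 4.84 ± 1.14 CPM in saline libraries (adjusted p = 0.716).

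The second comparison asked what MCC950 changes in middle-aged mice. At an adjusted p under 0.05, 1 claudin was higher and 1 lower in MCC950 than in saline libraries, where 11.9% of all genes were higher and 4.86% lower. Without adjustment, 4 claudins had a p under 0.05, and the share of all genes at that cut was not computed. Their median log2 fold change was -0.19, against 0.003 over all genes, with 4 values positive and 6 negative. No claudin was without overlap (all genes: 1.15% higher, 0.586% lower), and 0 passed the threshold of the study (all genes: 1.68% higher, 1.03% lower).

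*Cldn2*, the cation and water pore of the proximal tubule, rose. Its level was 45.0, 71.3 and 121.7 CPM (lowest, median and highest) in saline libraries and 80.7, 142.5 and 201.2 CPM in MCC950 libraries. Of the 8 MCC950 libraries 6 lay above every saline library, and the lowest of them lay near the saline mean. The log2 fold change was 0.85 (SE 0.23, adjusted p = 0.0179), a ratio of 1.80, and the call held without each of the 21 libraries in turn (adjusted p from 0.00741 to 0.0475). The proximal tubule score was higher by 0.86 with MCC950 (exact two-sided permutation test, p = 0.00249, 7 of 8 above every saline library), and 8 of its 15 markers rose. With this score as a covariate the log2 fold change of *Cldn2* was 0.09 (adjusted p = 0.709).

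*Cldn10* and *Cldn12*, which are also expressed in the proximal tubule, did not pass the test. *Cldn10* was at 21.2, 26.3 and 34.1 CPM in saline and 17.5, 28.3 and 37.7 CPM in MCC950 libraries, of which 2 of 8 lay above and 1 below every saline library (log2 fold change 0.06, 95% interval -0.31 to 0.44, adjusted p = 0.843). With the proximal tubule score as a covariate, its log2 fold change was -0.58 (adjusted p = 0.00529). *Cldn12* was at 22.0 ± 4.86 CPM in saline and 25.9 ± 7.45 CPM in MCC950 libraries (log2 fold change 0.24, 95% interval -0.13 to 0.60, adjusted p = 0.376). The ratio of *Cldn2* to *Cldn10* per kilobase was 2.78 ± 0.465 in young, 2.29 ± 0.544 in saline and 4.00 ± 0.581 in MCC950 libraries. Its lowest value after MCC950 was 3.35 and its highest after saline 3.32, a narrow gap. These groups thus did not overlap in the ratio, which was described without a test. The share of all gene pairs without overlap in this way was not computed. The ratio of *Cldn2* to *Cldn12* was 5.53 ± 0.979, 4.56 ± 0.701 and 7.12 ± 0.803 in the same order.

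*Cldn19* of the thick ascending limb fell. It was at 15.9, 20.2 and 24.0 CPM in saline libraries and at 5.36, 10.9 and 17.7 CPM in MCC950 libraries. Of the 8 MCC950 libraries 7 lay below every saline library. The log2 fold change was -0.86 (SE 0.24, adjusted p = 0.0194), a ratio of 0.551, and the call held without each of the 21 libraries in turn (adjusted p from 0.00919 to 0.0361). The thick ascending limb score was lower by 0.39 with MCC950 (exact two-sided permutation test, p = 0.0118, 5 of 8 below every saline library), and 3 of its 8 markers fell. In a fit added once the values were known, with this score as a covariate, *Cldn19* was at -0.29 on the log2 scale (adjusted p = 0.255), and with the podocyte score it had -0.64 (adjusted p = 0.0802).

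Its partner *Cldn16* was a low transcript, at 2.54, 2.73 and 4.83 CPM in saline and 1.63, 2.30 and 4.31 CPM in MCC950 libraries. Of the MCC950 libraries 5 of 8 lay below every saline library and 3 lay within the saline range, with a log2 fold change of -0.24 (SE 0.25, adjusted p = 0.549). The ratio of *Cldn19* to *Cldn16* per kilobase was 0.966 ± 0.124 in young (SD, n = 6), 1.77 ± 0.371 in saline (SD, n = 7) and 1.20 ± 0.528 in MCC950 libraries (SD, n = 8). Saline libraries ran from 1.15 to 2.34 and young libraries from 0.830 to 1.18, with 1 saline library inside the young range, while MCC950 libraries ran from 0.519 to 2.07 and overlapped both.

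**Figure D2:**
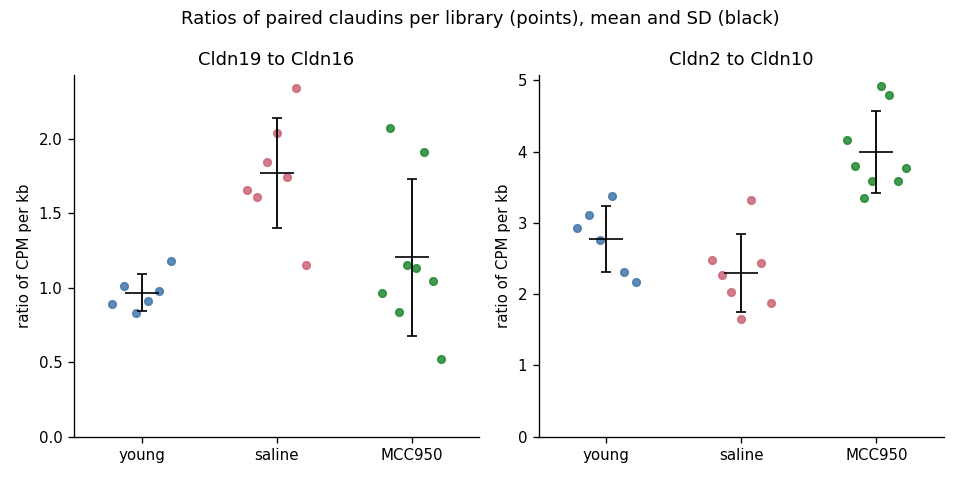
Ratios of *Cldn19* to *Cldn16* (left) and *Cldn2* to *Cldn10* (right), in CPM per kilobase of exon on an axis starting at 0, with 1 point per library and the mean and SD in black. The *Cldn2* to *Cldn10* ratio was 3.35 or more in each MCC950 library and at most 3.32 in saline libraries, and the *Cldn19* to *Cldn16* ratio was near 1 in young libraries. The share of all gene pairs separated in this way was not computed.

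None of the collecting duct claudins passed the test with MCC950. The log2 fold changes were -0.24 for *Cldn8* (95% interval -0.52 to 0.04), -0.17 for *Cldn4* (-0.57 to 0.23) and -0.21 for *Cldn7* (-0.55 to 0.14). *Cldn3* had -0.45 (SE 0.19, unadjusted p = 0.0293, adjusted p = 0.112), from 5.93 ± 1.40 to 4.35 ± 1.27 CPM, with 2 of 8 MCC950 libraries below every saline one. *Cldn1* was at 4.84 ± 1.14 CPM in saline and 6.72 ± 1.62 CPM in MCC950 libraries, with 4 of 8 above every saline one (log2 fold change 0.47, SE 0.20, unadjusted p = 0.0309, adjusted p = 0.116). The principal cell score was lower by 0.35 with MCC950 (exact two-sided permutation test, p = 0.127).

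The third comparison set MCC950-treated middle-aged mice against young mice, which differ in age and treatment. It shares the young libraries with the first comparison and the MCC950 libraries with the second. At an adjusted p under 0.05, 0 claudins were higher and 4 lower, where 21.8% of all genes were higher and 16.5% lower. Without adjustment, 5 claudins had a p under 0.05, and the share of all genes at that cut was not computed. The median log2 fold change was -0.37, against 0.08 over all genes. No claudin was without overlap (all genes: 4.66% lower, 3.28% higher), and 0 passed the threshold of the study (all genes: 4.32% lower, 4.05% higher).

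Of the 4 that were lower, 3 belong to the collecting duct and 1 to the thick ascending limb. *Cldn8* was at 49.6, 67.6 and 84.0 CPM in MCC950 libraries, and 7 of 8 lay below every young library (log2 fold change -0.65, SE 0.14, adjusted p = 0.00136). *Cldn4* was at 28.9, 47.1 and 77.6 CPM, with 5 of 8 below every young library (-0.70, SE 0.20, adjusted p = 0.00881). *Cldn7* was at 8.71, 16.6 and 22.5 CPM, with 4 of 8 below every young library (-0.54, SE 0.17, adjusted p = 0.0188). These 3 calls held without each of the 21 libraries in turn. The principal cell score was lower by 1.01 (exact two-sided permutation test, p = 0.00200, 6 of 8 MCC950 libraries below every young one), and all 8 of its markers fell. With this score as a covariate, the log2 fold change was -0.10 for *Cldn8* (adjusted p = 0.614), 0.15 for *Cldn4* (adjusted p = 0.488) and 0.24 for *Cldn7* (adjusted p = 0.151). This fit was added once the values were known. Over all genes it called 3431 higher and 2241 lower, against 3572 and 2705 in the main fit.

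*Cldn16* was at 2.92, 3.41 and 7.80 CPM in young libraries and had a log2 fold change of -0.68 after MCC950 (SE 0.26, adjusted p = 0.0457), with 5 of 8 MCC950 libraries below every young one. Its call was lost without young replicates 1 (adjusted p = 0.0994) or 5 (0.131), or MCC950 replicates 2 (0.0711), 3 (0.0768), 4 (0.0692), 6 (0.0785) or 7 (0.0773). *Cldn2* had a log2 fold change of 0.55 (SE 0.24, adjusted p = 0.0784), and passed the threshold without young replicate 1 (0.0132) or MCC950 replicate 7 (0.0379). *Cldn19* had -0.47 (SE 0.25, adjusted p = 0.141), *Cldn10* -0.01 (95% interval -0.40 to 0.39) and *Cldn12* 0.22 (95% interval -0.16 to 0.61).

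**Figure D3:**
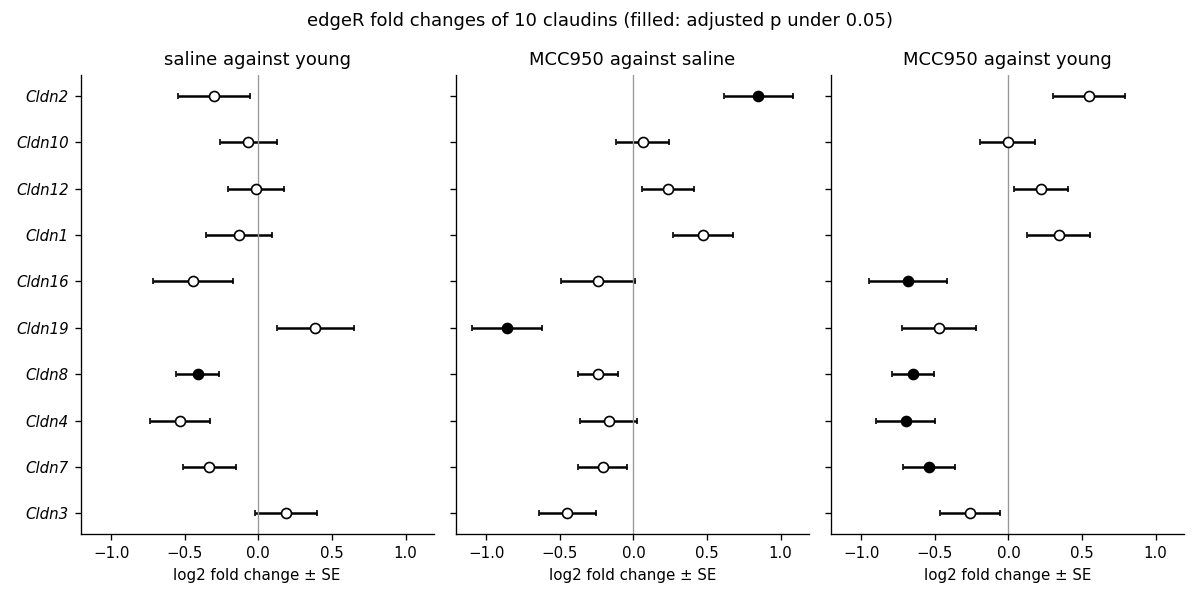
Log2 fold changes of the 10 claudins from edgeR (x axis, points with the standard error as bars) in the comparisons of saline with young, MCC950 with saline and MCC950 with young libraries, with filled points for an adjusted p under 0.05. *Cldn8* is filled in the left panel, at -0.41, *Cldn2* and *Cldn19* in the middle panel, at 0.85 and -0.86, and *Cldn16*, *Cldn8*, *Cldn4* and *Cldn7* in the right panel.

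How the claudins varied from library to library was described by Pearson's r of log2 CPM over the 21 libraries, after the mean of each group was subtracted. The values share libraries and scaling, and r is given as a description. The proximal tubule claudins followed the proximal tubule score, with r of 0.93 for *Cldn2*, 0.92 for *Cldn10* and 0.80 for *Cldn12*. With the thick ascending limb score, r was 0.79 for *Cldn19* and 0.59 for *Cldn16*. It was 0.68 for *Cldn10*, 0.65 for *Cldn8* and 0.59 for *Cldn12*, so the value of *Cldn16* was not particular to the pair. *Cldn7* (0.90), *Cldn4* (0.87), *Cldn3* (0.81) and *Cldn8* (0.79) followed the principal cell score, and *Cldn8* had 0.81 with the distal tubule score. *Cldn1* had 0.25 with the score of 4 parietal cell markers and 0.56 with the proximal tubule score. The parietal score had a higher r with *Cldn3* (0.48), *Cldn7* (0.48), *Cldn4* (0.43), *Cldn8* (0.38) and *Cldn12* (0.29). It had a lower r with *Cldn2*, *Cldn10*, *Cldn16* and *Cldn19*, so it was not particular to *Cldn1*. The closest pairs of claudins were *Cldn4* with *Cldn7* (0.91), *Cldn2* with *Cldn12* (0.90) and *Cldn2* with *Cldn10* (0.84), while *Cldn16* and *Cldn19* had 0.61. With the podocyte score r ran from -0.55 for *Cldn16* to 0.17 for *Cldn8*.

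**Figure D4:**
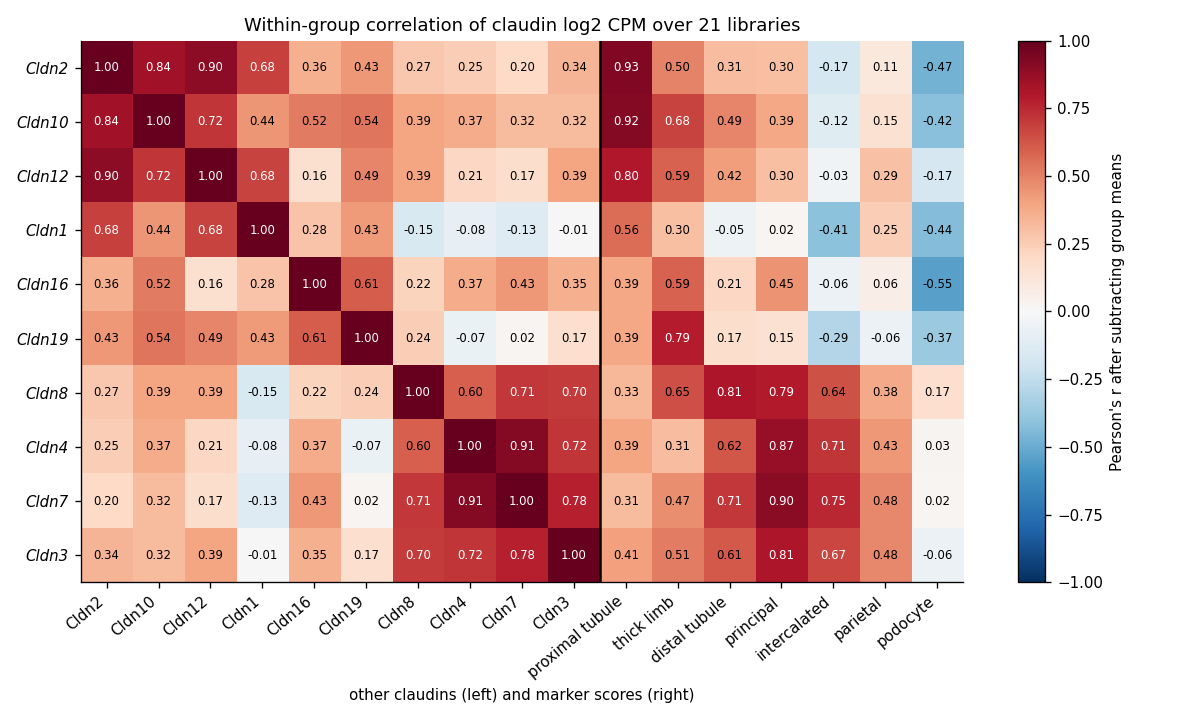
Pearson's r of log2 CPM, after subtracting group means, between each claudin (rows) and the other claudins and marker scores (columns, separated by the black line), over 21 libraries. *Cldn2*, *Cldn10* and *Cldn12* form one block with the proximal tubule score, at 0.80 to 0.93, and *Cldn8*, *Cldn4*, *Cldn7* and *Cldn3* another with the principal cell score, at 0.79 to 0.90.

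By the same measure, the genes most like each claudin among all genes tested were listed, 3 for each. For *Cldn2* they were *Mgat3* (0.97), *Ugt3a2* (0.96) and *Slc16a12* (0.96). *Cldn10* had *Gas2* (0.96), *Tmigd1* (0.95) and *Slc22a22* (0.95), and *Cldn12* had *Marchf6* (0.94), *Aldh6a1* (0.94) and *Lclat1* (0.93). *Cldn19* had *Pla1a* (0.92), *Slc12a1* (0.92), the sodium-potassium-chloride cotransporter that is also among the thick ascending limb markers, and *Ppp1r1b* (0.89). *Cldn16*, the lowest in counts with *Cldn3* and *Cldn1*, had *Eprn* (0.85), *Commd1* (0.83) and *Mto1* (0.82), and the latter pair had 0.19 and 0.30 when group means were not subtracted. *Cldn4* had *Tob1* (0.95), *Cldn7* (0.91) and *Traf4* (0.90), *Cldn7* had *AA986860* (0.92), *Cldn4* (0.91) and *Tmem45b* (0.91), and *Cldn8* had *Tmem52b* (0.94), *Sgsm1* (0.94) and *Ninl* (0.93). *Cldn3* had *Hoxb6* (0.94), *Hoxb8* (0.91) and *Pax2* (0.91), and *Cldn1* had *Galc* (0.86), *Gpat3* (0.82) and *Tmem106a* (0.82). When group means were not subtracted, *Traf4* had 0.51 with *Cldn4*, *Pax2* 0.65 with *Cldn3* and *Sgsm1* 0.68 with *Cldn8*. None of the 3 genes of *Cldn3*, *Cldn8* or *Cldn12* was then among the 3 highest, while each other claudin kept at least 1.

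The level of each claudin was also set against the markers of its segment, as log2 CPM minus the segment score in the same library, without a test. *Cldn2* lay at a similar distance from the proximal tubule markers in the 3 groups, at -0.74 ± 0.20 in young, -0.84 ± 0.10 in saline and -0.83 ± 0.22 in MCC950 libraries. *Cldn10* did not: it was at -2.55 ± 0.15, -2.36 ± 0.30 and -3.18 ± 0.11, and its highest MCC950 library, at -2.99, lay below the lowest young (-2.79) and saline (-2.81) libraries. The proximal tubule score itself was highest after MCC950, and the share of all genes that separate from it in this way was not computed. *Cldn12* was at -2.84 ± 0.40, -2.66 ± 0.24 and -3.31 ± 0.22, with some overlap. *Cldn10* is also expressed in the thick ascending limb, and against those markers it was at -2.58 ± 0.37, -2.59 ± 0.26 and -2.16 ± 0.22. *Cldn19* minus the thick ascending limb score was -3.47 ± 0.37 in young, -3.02 ± 0.15 in saline and -3.58 ± 0.44 in MCC950 libraries, and *Cldn16* was at -5.26 ± 0.35, -5.66 ± 0.34 and -5.57 ± 0.50.

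Against the principal cell markers, each collecting duct claudin had a lower mean in young than in saline or MCC950 libraries. The separation was complete for *Cldn3*, at -3.73 ± 0.29 in young, -2.88 ± 0.26 in saline and -3.00 ± 0.21 in MCC950 libraries, where the highest young value of -3.38 lay below the lowest saline value of -3.28 and just below the lowest MCC950 value of -3.37. The principal cell score itself was lower than in young libraries, by 0.66 in saline and 1.01 in MCC950 libraries. The share of all genes that separate from this score in the same way was not computed. *Cldn7* was at -1.56 ± 0.12, -1.21 ± 0.16 and -1.10 ± 0.22. *Cldn8* was at 0.59 ± 0.12, 0.85 ± 0.22 and 0.95 ± 0.34, and *Cldn4* at 0.20 ± 0.13, 0.35 ± 0.14 and 0.47 ± 0.28, with overlapping libraries. *Cldn1* minus the parietal score was -1.03 ± 0.50, -0.56 ± 0.38 and -0.13 ± 0.41, and 3 of the 4 parietal markers fell with age. The parietal score holds *Pax2*, one of the genes most like *Cldn3*, and by r it was not particular to *Cldn1*.

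**Figure D5:**
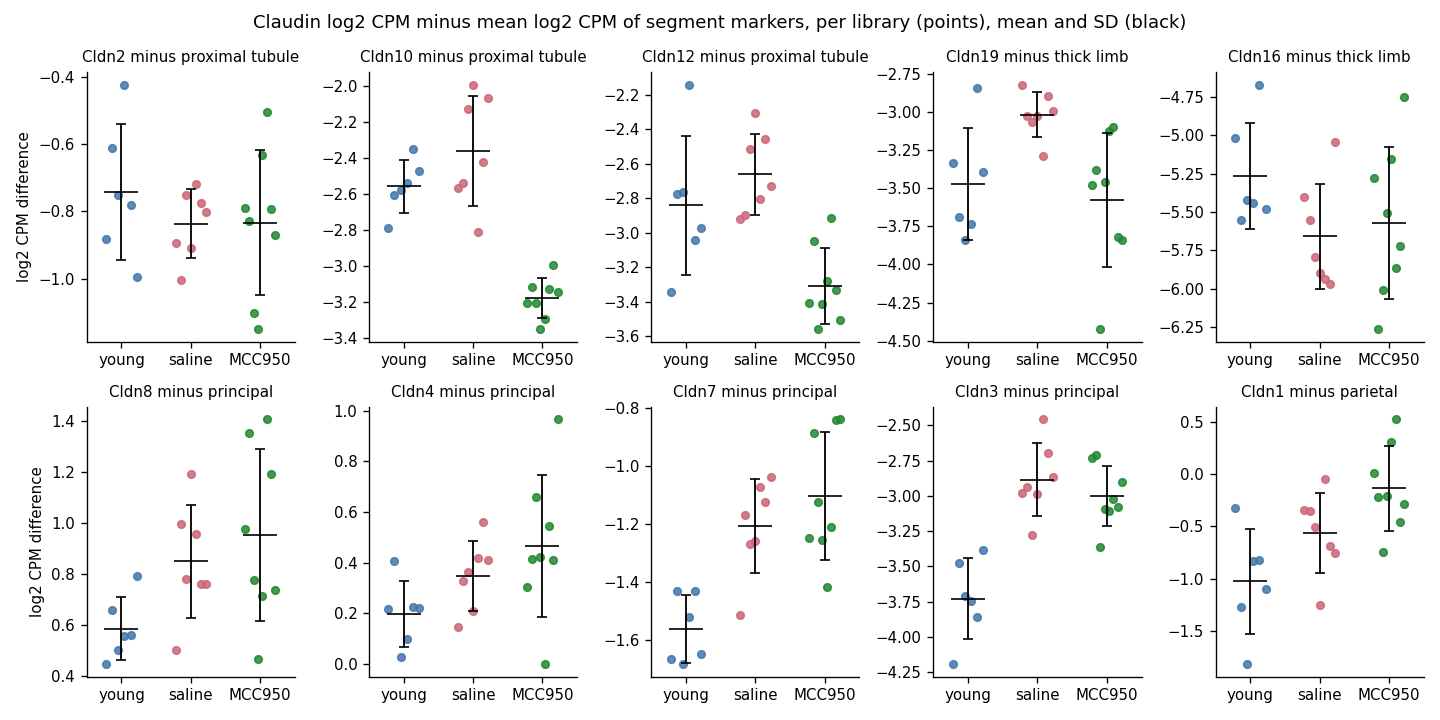
Log2 CPM of each claudin minus the mean log2 CPM of the markers of the segment named above the panel (y axis, not starting at 0), with 1 point per library and the mean and SD in black. *Cldn2* has overlapping libraries in the 3 groups, with means from -0.84 to -0.74, *Cldn10* is lowest after MCC950, at -3.18, and *Cldn3* is lowest in young libraries, at -3.73.

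The rest of the claudin family and of the tight junction was taken from lists set for this pathway. Of 17 further claudins listed, 16 were matched in the tables and 7 passed the filter. Of these 7, 3 fell with age and 0 rose, where 12.4% of all genes fell and 12.2% rose: *Cldn5*, the claudin of podocytes and endothelium (log2 fold change -0.85, SE 0.16, adjusted p = 0.000568), *Cldn15* (-0.79, SE 0.18, adjusted p = 0.00325) and *Cldnd1*, a claudin-like protein (-0.23, SE 0.08, adjusted p = 0.0372). *Cldn5* was also lower in MCC950 than in saline libraries (-0.51, SE 0.15, adjusted p = 0.0227). It was the only one of the 7 that passed, with 0 higher, where 4.86% of all genes were lower and 11.9% higher. It was at 21.2 ± 3.98, 11.7 ± 2.09 and 8.27 ± 1.99 CPM in young, saline and MCC950 libraries. The endothelial marker score was lower by 0.96 with age (exact two-sided permutation test, p = 0.00117) and by 0.20 with MCC950 (exact two-sided permutation test, p = 0.145). The former p is the smallest that the group sizes allow. The podocyte score was lower by 1.82 with age (exact two-sided permutation test, p = 0.00117). With MCC950 over saline it was higher by 0.53 (exact two-sided permutation test, p = 0.00839), while *Cldn5* was lower. The part of either score in the result was not tested. Against young, 4 of the 7 were lower after MCC950 and 0 higher, where 16.5% of all genes were lower and 21.8% higher. The medians of the 7 were -0.66 with age and -0.24 with MCC950 over saline.

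All 24 scaffold and adhesion genes listed for the tight junction passed the filter, and 11 fell and 0 rose with age, beside 12.4% and 12.2% of all genes. The largest falls were in *Tjp1*, which encodes the scaffold ZO-1 (log2 fold change -0.96, SE 0.15, adjusted p = 0.000165), the multi-PDZ scaffold *Mpdz* (-0.94, SE 0.13, adjusted p = 4.32e-05) and the polarity protein *Mpp5* (-0.93, SE 0.13, adjusted p = 6.27e-05). Of the podocyte markers, 13 of 14 fell in the same comparison, and their part in these falls was not tested. With MCC950, 3 rose and 2 fell, beside 11.9% and 4.86% of all genes, so the share that rose was near that of all genes. *Marveld3* (0.42, SE 0.14, adjusted p = 0.0397) and *Igsf5* (0.40, SE 0.13, adjusted p = 0.0357) were among those that rose, and the adhesion molecule *Jam2* was lower (-1.12, SE 0.16, adjusted p = 0.000580). Against young, 12 were lower after MCC950 and 0 higher, beside 16.5% and 21.8% of all genes. The medians of the list were -0.30 with age and 0.04 with MCC950.

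A list of 16 genes was set as possible regulators of claudins, and their action on these claudins was not tested. All 16 passed the filter, and 1 fell and 0 rose with age, beside 12.4% and 12.2% of all genes. The 1 that fell was the calcium channel *Trpv4* (log2 fold change -0.49, SE 0.13, adjusted p = 0.0112). With MCC950, 3 rose and 2 fell, beside 11.9% and 4.86% of all genes. Those with the largest change were *Hnf4a*, a transcription factor of the proximal tubule (1.06, SE 0.20, adjusted p = 0.00300), *Pth1r*, the parathyroid hormone receptor (0.67, SE 0.15, adjusted p = 0.00843), and *Trpv4* (0.55, SE 0.13, adjusted p = 0.00830). Against young, 1 rose and 2 fell after MCC950, beside 21.8% and 16.5% of all genes: *Hnf4a* was higher (0.96, SE 0.21, adjusted p = 0.00153), while the calcium-sensing receptor *Casr*, which acts on *Cldn16* and *Cldn19* in the thick ascending limb and is one of its markers here, was lower (-0.49, SE 0.14, adjusted p = 0.00766), as was *Ap1m2*, a sorting adaptor of epithelia (-0.27, SE 0.09, adjusted p = 0.0230). The medians of these 16 genes were -0.11 with age and 0.06 with MCC950 over saline.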

How the data were processed

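The authors trimmed reads with Trim Galore, aligned them to mm10 (GRCm38) with Bowtie2, and deposited raw featureCounts counts per gene for each of the 21 libraries. Versions, annotation release and strand setting are not given in the sources used here. Their normalized table was not used. Of 27179 Entrez Gene numbers, 25275 were named from RefSeq and 18 from GENCODE, whose exon lengths gave CPM per kb. The quasi-likelihood F test of edgeR 4.0.16 (R 4.3.3) was run on the counts (TMM, filterByExpr by group, 3 groups in one fit, 16377 genes), with Benjamini-Hochberg adjustment over all genes and a threshold of 0.05. The SE is the fold change over the square root of F. Log2 CPM used a prior count of 2. For marker scores the test was an exact two-sided permutation (the smaller tail doubled), not adjusted for their number. Alternatives included DESeq2 1.42.0, the tool of the study. The workflow was tested on simulated data.

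The claudins and gene lists were chosen with earlier results of these data known. All 10 claudins are named, with the called genes of largest change from each pathway list (at most 3 per comparison) and the 3 genes of highest r. Libraries of the same replicate number were taken as unpaired. The correlation of their deviations ranged from -0.061 to 0.35, from -0.14 to 0.33 and from -0.013 to 0.40 in the 3 comparisons. Replicates are separate mice. No library duplicated another of its group (lowest chi-square per degree of freedom 17.7 over 64 pairs). Depth sets the counting error, which is smallest where counts are high. For *Cldn1*, *Cldn3* and *Cldn16*, counts per library were from 78 to 700.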

Additional observations from a re-analysis of the deposited data

Results flagged for a closer look

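Of 30 groups examined, 10 claudins in each of 3 groups of mice, 1 held a library that stood apart from the rest. In young replicate 3, the log2 CPM of *Cldn3* was 2.97, while the other 5 young libraries lay between 2.13 and 2.40. Its gap to the nearest library was 0.678 of the whole range of the group. Chance flags about 1 in 20 such groups.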

How the results depend on the processing

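The numbers of claudins called moved as follows, against 0 higher and 1 lower with age, 1 higher and 1 lower with MCC950 over saline, and 0 higher and 4 lower with MCC950 over young. With age, the lower count was 2 with DESeq2, with DESeq2 size factors in edgeR or with only the groups compared, and 0 without a filter on low counts, with the replicate block, or with the proximal tubule, podocyte or distal nephron score as a covariate, where the distal score gave 1 higher. With MCC950 over saline, the proximal tubule score gave 0 higher and 2 lower, and the podocyte score 2 higher and 0 lower. With MCC950 over young, the replicate block gave 1 higher, *Cldn2* (log2 fold change 0.66, adjusted p = 0.00120), the proximal tubule score 6 lower, with *Cldn10* (-0.44, adjusted p = 0.00141) and *Cldn19* (-0.75, adjusted p = 0.0344) added, the distal score 0 lower and the podocyte score 1 lower. With the podocyte score the log2 fold changes of the claudins that lost their call were -0.62 for *Cldn4*, -0.49 for *Cldn7* and -0.48 for *Cldn8*. The lower count was 3 without a filter, with only the groups compared and with thinned counts. At the threshold of the study each count was 0. Calls over all genes moved too. The podocyte score left 5 higher and 0 lower with age, against 1996 and 2038 in the main fit. Over young it left 40 and 98 with MCC950, against 3572 and 2705. In these comparisons with young, claudin calls lost with it are thus not particular to claudins. For MCC950 over saline the podocyte score instead gave more calls over all genes, 2515 higher and 1170 lower, against 1957 and 796. *Cldn19* lost its call there (-0.64, adjusted p = 0.0802). The distal score gave 811 and 1003 with age, and 3079 and 1818 with MCC950 over young. Over saline, the proximal tubule score gave 408 and 316 with MCC950, against 1957 and 796. The covariates share variation with the claudins, and the cause of the moves in the claudin counts was not tested. Leaving out each library in turn gave from 0 to 0 higher and 0 to 2 lower with age, 1 to 1 higher and 1 to 1 lower with MCC950 over saline, and 0 to 1 higher and 3 to 4 lower with MCC950 over young. Since equal replicate numbers did not pair the libraries, the replicate block is given only here.

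Of single claudins, those whose sign turned were not called in the comparison concerned, apart from *Cldn4* and *Cldn7* with MCC950 over young. The distal nephron score gave 0.028 for *Cldn4*, 0.17 for *Cldn7*, 0.47 for *Cldn3* and 0.33 for *Cldn10* with MCC950 over young, 0.054 for *Cldn4* and 0.0075 for *Cldn7* over saline, and 0.16 for *Cldn7*, 0.16 for *Cldn10* and 0.17 for *Cldn12* with age. The principal cell score, added after seeing the data, gave 0.15 for *Cldn4*, 0.24 for *Cldn7* and 0.52 for *Cldn3* with MCC950 over young, 0.088 for *Cldn4* and 0.029 for *Cldn7* over saline, and 0.062 for *Cldn4* and 0.21 for *Cldn7* with age. The proximal tubule score gave -0.032 for *Cldn2* and -0.20 for *Cldn12* with MCC950 over young, -0.58 for *Cldn10* and -0.29 for *Cldn12* over saline, and 0.14 for *Cldn10* and 0.093 for *Cldn12* with age. The podocyte score gave -0.20 for *Cldn1* and -0.15 for *Cldn2* with MCC950 over young, 0.10 for *Cldn16* over saline, and -0.37 for *Cldn19* with age. The thick ascending limb score, also added later, gave 0.25 for *Cldn16* over saline and 0.15 for *Cldn19* over young. The replicate block gave 0.042 for *Cldn10* and 0.082 for *Cldn12* with age and 0.095 for *Cldn10* with MCC950 over young. *Cldn10* was at -0.0075 over saline with thinned counts and at 0.011 over young without a filter. Without each library in turn, values ran from -0.27 to 0.032 for *Cldn1*, from -0.21 to 0.12 for *Cldn10* and from -0.094 to 0.10 for *Cldn12* with age, and for *Cldn10* from -0.016 to 0.14 over saline and from -0.17 to 0.18 over young. The thick ascending limb score differed with age by 0.0085, by -0.012 with DESeq2 size factors, and by -0.0307 to 0.0739 without single libraries. Depth limits *Cldn1*, *Cldn3* and *Cldn16* most, and *Cldn16* lost its call over young with thinned counts (adjusted p = 0.103).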
